A study of Homo sapiens with 8 samples.

Results

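The genes described here are 10 cytosolic heat shock chaperones: HSPA1A, HSPA1B, HSPA8, HSPA4, HSPH1, HSPB1, HSP90AA1, DNAJB1, DNAJA1 and BAG3. They were chosen by symbol, through the RefSeq transcripts that the expression tables list for each symbol. The 10 genes hold 16 of the 49235 listed transcripts, and they are 10 of the 25503 genes for which a summed value could be formed. All 10 had a mean of at least 1 FPKM (a level of sequenced fragments corrected for transcript length and library size), as did 13116 genes in all.

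HSP70 proteins bind exposed hydrophobic stretches of unfolded proteins and release them in cycles of ATP hydrolysis. J-domain proteins such as DNAJB1 and DNAJA1 bring clients and speed hydrolysis, and exchange factors such as HSPH1, HSPA4 and BAG3 release ADP and the client. HSP90 acts later on signalling proteins and receptors that are already partly folded, and the small chaperone HSPB1 holds unfolded proteins without ATP. Heat shock factor 1 (HSF1) is kept inactive by these chaperones in unstressed cells, and on proteotoxic stress it trimerises, binds inverted repeats of GAA (heat shock elements) and drives transcription of many of the genes named above.

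The samples were H1 human embryonic stem cells, an established pluripotent line, grown without feeder cells on Matrigel in a defined medium at low oxygen. Every library came from cells that carry a doxycycline-inducible short hairpin RNA and were kept in puromycin. The shEXOSC3 line has a hairpin against EXOSC3, which belongs to the RNA exosome and helps it trim or destroy RNA from the 3′ end, and the shNS line has a non-silencing hairpin. Total RNA depleted of ribosomal RNA was sequenced at days 5 and 7, with and without doxycycline, in 8 groups of 1 library each. The comparison asks how chaperone transcripts stand when the exosome subunit is depleted, with shNS as the control for doxycycline and hairpin expression. With 1 library per group there is no replicate, the 2 days are not replicates of each other, and a difference between 2 libraries has no error of its own. The labels do not say whether a line is 1 clone or how many cultures were made.

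Summed over its transcripts, EXOSC3 stood at 45.0% of its untreated level on day 5 and 48.9% on day 7 in shEXOSC3, against 102% and 90.6% in shNS. Its main transcript alone, NM_016042, was lower in shEXOSC3, at 30.7% and 36.2%, and stayed at 103% and 99.5% in shNS. Of the minor transcript NM_001002269, the treated shEXOSC3 libraries held 3.77 FPKM (untreated 0.627) at day 5 and 3.22 FPKM (untreated 0) at day 7. Both treated shNS libraries held 0 FPKM of it (untreated 0.415 and 2.68). Summed FPKM per library lay between 675742 and 785419. Read totals are not in the tables, but relative depth could be read from the authors' values: compared with its untreated partner, the treated library was 1.01 and 0.923 times as deep for shEXOSC3 and 1.59 and 1.33 times as deep for shNS. The libraries of the 2 days stand apart: on day 5 a total of 23.8% to 27.6% of summed FPKM went to the top 3 transcripts, whereas it was 6.21% to 7.16% on day 7. Of 10 pluripotency markers all were measured, with a summed level of 2143 to 3579 FPKM. In bulk RNA, fewer cells of a type and less RNA per cell cannot be told apart.

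The stretches of 250 bases before the RefSeq start sites (RefSeq, GRCh38.p14) are shown for HSPA1A and HSPA1B, the near-identical inducible HSP70 pair, and for HSPA8 and HSP90AA1, the most abundant chaperone genes of the set. They are given 5′ to 3′ on the gene's own strand, and the window ends at the base before the start. Capitals mark matches to GAANNTTC or TTCNNGAA, each made of 2 inverted GAA units, or to GAANNTTCNNGAA, made of 3. Matches to the 3-unit form overlap the 2-unit forms, and both strands were searched.
HSPA1A, chr6:31815293-31815542, plus strand: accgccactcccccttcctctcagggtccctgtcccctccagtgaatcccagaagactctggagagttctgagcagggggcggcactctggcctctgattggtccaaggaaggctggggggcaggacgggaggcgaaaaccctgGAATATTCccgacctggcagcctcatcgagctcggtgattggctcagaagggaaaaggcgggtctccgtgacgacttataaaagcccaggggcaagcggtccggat
HSPA1B, chr6:31827488-31827737, plus strand: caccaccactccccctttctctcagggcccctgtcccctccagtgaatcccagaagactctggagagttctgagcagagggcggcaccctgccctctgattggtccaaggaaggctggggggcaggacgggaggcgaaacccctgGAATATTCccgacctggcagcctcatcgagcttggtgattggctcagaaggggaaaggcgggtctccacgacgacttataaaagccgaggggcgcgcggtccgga
HSPA8, chr11:123062137-123062386, minus strand: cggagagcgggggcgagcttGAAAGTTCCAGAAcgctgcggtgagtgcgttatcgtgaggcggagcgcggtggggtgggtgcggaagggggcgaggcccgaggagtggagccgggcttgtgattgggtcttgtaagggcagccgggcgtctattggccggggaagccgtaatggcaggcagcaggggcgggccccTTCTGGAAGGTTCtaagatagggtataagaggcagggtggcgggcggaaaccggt
HSP90AA1, chr14:102087045-102087294, minus strand: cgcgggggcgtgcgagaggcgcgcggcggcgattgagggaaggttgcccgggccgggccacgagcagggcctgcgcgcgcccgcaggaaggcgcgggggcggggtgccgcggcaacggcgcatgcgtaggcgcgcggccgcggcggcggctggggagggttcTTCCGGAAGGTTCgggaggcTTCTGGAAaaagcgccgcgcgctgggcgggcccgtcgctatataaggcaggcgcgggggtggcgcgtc

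The HSPA1A and HSPA1B windows were identical at 93.6% of aligned positions, with 14 mismatches and 2 gap bases. Each held GAATATTC, starting at position -106 in HSPA1A and -105 in HSPA1B, counted back from the start site. HSPA8 held the 3-unit form at -230 (GAAAGTTCCAGAA) and at -55 (TTCTGGAAGGTTC). HSP90AA1 held it at -88 (TTCCGGAAGGTTC), followed by TTCTGGAA at -68. Outside the printed windows, 2-unit matches were found before DNAJB1 (GAAGGTTC and GAAGCTTC), HSPB1 (GAAGGTTC) and DNAJA1 (GAAGATTC). A 2-unit match was thus found for 7 of the 10 genes and a 3-unit match for 2, whereas 11.6% of 35116 RefSeq promoter windows of the same length held a 2-unit match and 0.441% held a 3-unit match. By window, 7 of the 13 windows of these genes held a 2-unit match and 2 held a 3-unit match, since HSP90AA1 has 2 windows and DNAJB1 has 3 and a match was found in 1 window of each. No match was found in the windows of HSPA4, HSPH1 and BAG3, which says only that these letters are not in these bases. A match is a string of letters, and no binding was measured.

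In the tables' own build, hg19, HSPA8 lies at chr11:122928200-122933043, HSP90AA1 at chr14:102547075-102606086, HSPA4 at chr5:132387662-132440709 and DNAJA1 at chr9:33025209-33039062. HSPH1 lies at chr13:31709111-31736525, DNAJB1 at chr19:14625576-14629371, HSPB1 at chr7:75931875-75933614 and BAG3 at chr10:121410882-121437329. HSPA1A and HSPA1B are listed only on an alternative haplotype contig of chromosome 6, at 3076938 to 3079366 and at 3089163 to 3091686 of that contig. Reads that the aligner placed on the primary copy of these genes may therefore not be in their values. Of the 50-base stretches in the transcripts of HSPA1A, 72.6% also occur in another gene, all of them in HSPA1B, and for HSPA1B the share was 73.5%. It was 17.5% for HSP90AA1, 15.4% for HSPA8, 11.4% for HSPB1, 2.57% for DNAJB1, 1.50% for DNAJA1 and 0% for HSPA4, HSPH1 and BAG3. The values of HSPA1A and HSPA1B are therefore uncertain one against the other, and they are also given as a sum.

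The levels spanned a wide range and kept their order. HSPA8, the constitutive HSC70, was first among the 10 genes in each of the 8 libraries, with a mean of 986 FPKM, and 0.778% of the 13116 genes had a higher mean. HSP90AA1, the inducible cytosolic HSP90, was second with 391 FPKM, followed by HSPA4 with 275 FPKM, DNAJA1 with 198 FPKM and HSPH1 with 35.4 FPKM, again in every library. The ranges of HSP90AA1, HSPA4 and DNAJA1 over the libraries overlap, so their order holds within libraries and not between them. DNAJB1 (mean 20.9 FPKM) and HSPB1 (20.4 FPKM) exchanged places between libraries and cannot be ordered. HSPA1B (6.09 FPKM), HSPA1A (6.07 FPKM) and BAG3 (3.91 FPKM) filled the last places in varying order, and 74.2% of genes had a higher mean than BAG3. The 10 genes together made up 0.230% to 0.346% of summed FPKM, of which HSPA8 alone was 41.7% to 58.9%.

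**Figure D1:**
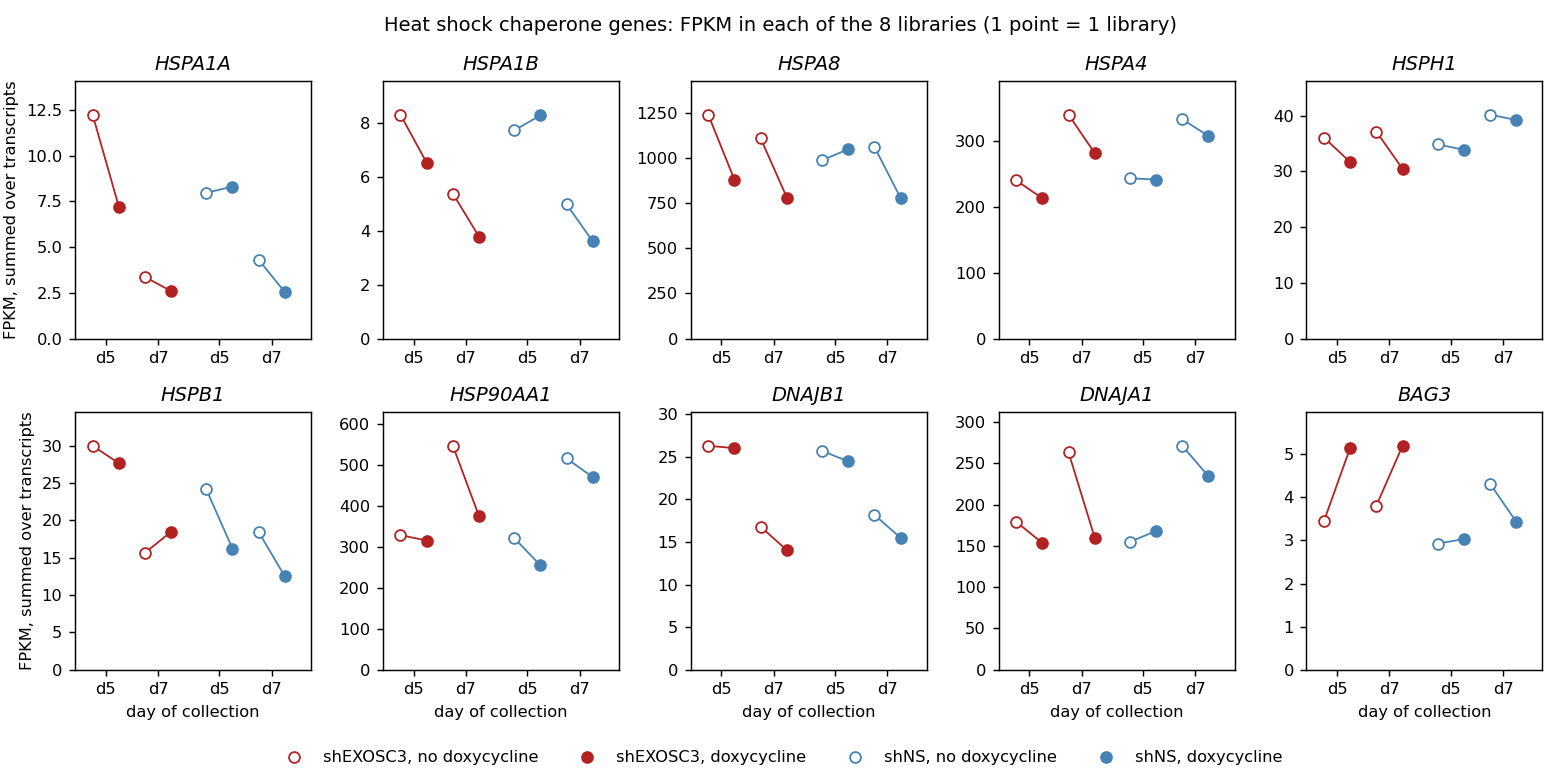
FPKM summed over transcripts (vertical axis, starting at 0, with its own scale in each panel) for the 10 chaperone genes in each of the 8 libraries, by day of collection (d5 and d7). Red is shEXOSC3 and blue shNS, open circles are untreated and filled circles doxycycline libraries, 1 circle is 1 library, and a line joins the libraries of 1 table; HSPA8 slopes down in both shEXOSC3 pairs, from 1240.2 to 879 and from 1108 to 780.3 FPKM.

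HSPA8, which folds new proteins and uncoats clathrin vesicles in unstressed cells, measured 1240.2 FPKM without and 879 FPKM with doxycycline in the shEXOSC3 line on day 5. On day 7 the same line had 1108 FPKM without and 780.3 FPKM with doxycycline. The shNS line had 987 FPKM untreated and 1049 FPKM treated on day 5, then 1063 FPKM untreated and 779 FPKM treated on day 7. Both doxycycline libraries of shEXOSC3 were below both of its untreated libraries, at 70.9% and 70.4% of their partners, and shNS showed a like value on day 7 (73.3%) but not on day 5 (106%). In shEXOSC3 the log2(FPKM + 1) ratios were -0.50 and -0.51, and 1.32% of all genes and 1.8% of genes with a mean of at least 100 FPKM were at or below both of these values. Genes of at least 300 FPKM had medians of -0.13 and -0.12 in shEXOSC3, against 0 and -0.0038 for all genes. They were widely spread, with 5th percentiles of -0.68 and -0.65, below the HSPA8 ratios, and 95th percentiles of 0.95 and 1.12. In shNS the HSPA8 ratios were 0.09 and -0.45. This left an adjusted difference (the shEXOSC3 ratio minus the shNS ratio of that day) of -0.58 on day 5 and -0.06 on day 7. With the treated libraries of the 2 lines compared directly, across tables, the day 5 difference was -0.25. With each library scaled to its own sum of FPKM, the HSPA8 ratios in shEXOSC3 were -0.36 and -0.54. The adjusted differences were then -0.41 and -0.07. The second listed transcript was at 0 FPKM in all 8 libraries, so the value rests on 1 transcript.

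HSPA1A and HSPA1B encode the stress-inducible HSP70 and were low in every library. HSPA1A measured 12.2 FPKM without and 7.22 FPKM with doxycycline on day 5, then 3.37 FPKM untreated and 2.59 FPKM treated on day 7 in the shEXOSC3 line. Its levels in shNS were 7.98 FPKM untreated and 8.31 FPKM treated on day 5, then 4.31 FPKM untreated and 2.54 FPKM treated on day 7. The untreated shEXOSC3 library of day 5 was the highest and each day 7 library was below each day 5 library. The log2 ratios were -0.69 and -0.28 in shEXOSC3 and 0.05 and -0.59 in shNS, so that the adjusted difference was -0.74 on day 5 and 0.30 on day 7, of opposite sign. Compared across tables, the treated libraries of the 2 lines differed by -0.18 on day 5 and 0.02 on day 7. HSPA1B measured 8.33 FPKM untreated and 6.54 FPKM treated on day 5, then 5.39 FPKM untreated and 3.78 FPKM treated on day 7 in the shEXOSC3 line. The control line had 7.74 FPKM untreated and 8.30 FPKM treated on day 5, then 5.00 FPKM untreated and 3.62 FPKM treated on day 7. Its adjusted differences were -0.40 and -0.04, the first being -0.25 with each library scaled to its own sum of FPKM.

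As a sum, the inducible pair was at 20.6 FPKM untreated and 13.8 FPKM treated on day 5, then 8.76 FPKM untreated and 6.38 FPKM treated on day 7 in shEXOSC3. The sum in shNS was 15.7 FPKM untreated and 16.6 FPKM treated on day 5, then 9.31 FPKM untreated and 6.15 FPKM treated on day 7. HSPA8 was 60.3 to 63.9 times the sum in the 4 libraries of day 5 and 114 to 127 times in those of day 7. Within a day this ratio of constitutive to inducible HSP70 thus moved little with doxycycline in either line. The libraries of the 2 days differ with GC content, which is 59.7% for HSPA1A, 58.7% for HSPA1B and 47.0% for HSPA8. The part of GC content in the difference of this ratio between days was not tested.

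HSPB1, an actin-protecting small heat shock protein, measured 30.0 FPKM without and 27.6 FPKM with doxycycline on day 5, then 15.7 FPKM untreated and 18.5 FPKM treated on day 7 in the shEXOSC3 line. The shNS libraries had 24.2 FPKM untreated and 16.2 FPKM treated on day 5, then 18.4 FPKM untreated and 12.5 FPKM treated on day 7. The control line was thus at 67.1% and 67.8% of its untreated level, while shEXOSC3 was at 92.2% and 118%. In log2 terms the shNS ratios of -0.55 and -0.53 lay at percentiles 1.78 and 2.58 of all genes, and the shEXOSC3 ratios were -0.11 and 0.23. The adjusted differences of 0.44 and 0.75 come mainly from the values of the control line, and the treated libraries compared across tables differed by 0.73 and 0.53.

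BAG3, which links HSP70 to the small heat shock proteins and to autophagy, was the one gene of the 10 above its untreated level on both days in shEXOSC3. It stood there at 3.44 FPKM without and 5.14 FPKM with doxycycline on day 5, then 3.81 FPKM untreated and 5.19 FPKM treated on day 7. Levels in shNS were 2.93 FPKM untreated and 3.03 FPKM treated on day 5, then 4.32 FPKM untreated and 3.43 FPKM treated on day 7. The 2 doxycycline libraries of shEXOSC3 were the highest of the 8. The log2 ratios of 0.47 and 0.37 in shEXOSC3 were at percentiles 92.9 and 88.9 of all genes, against 0.04 and -0.26 in shNS, and the adjusted differences were 0.43 and 0.63. With a pseudocount of 5 FPKM in place of 1 they were 0.25 and 0.35, and the shEXOSC3 ratios were 0.26 and 0.21. BAG3 was the lowest of the 10 genes, and at this level the number of reads behind a value is not known.

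HSP90AA1 measured 329 FPKM without and 315 FPKM with doxycycline on day 5, then 546 FPKM untreated and 374 FPKM treated on day 7 in the shEXOSC3 line. For shNS the levels were 322 FPKM untreated and 255 FPKM treated on day 5, then 516 FPKM untreated and 469.9 FPKM treated on day 7. Every doxycycline library was below its untreated partner, by most in shEXOSC3 on day 7 (68.5%). The adjusted difference was 0.28 on day 5 (0.45 with scaling to summed FPKM) and -0.41 on day 7, of opposite sign. HSP90AB1, the constitutive cytosolic HSP90, had an estimate that failed in 1 table and is not summed here.

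DNAJA1, a farnesylated J-domain partner of HSC70, measured 179 FPKM without and 153 FPKM with doxycycline on day 5, then 263 FPKM untreated and 159.9 FPKM treated on day 7 in the shEXOSC3 line. The shNS line had 155 FPKM untreated and 168 FPKM treated on day 5, then 271 FPKM untreated and 234 FPKM treated on day 7. The day 7 library of shEXOSC3 with doxycycline was at 60.7% of its partner, a log2 ratio of -0.72, percentile 2.03 of all genes. The adjusted differences were -0.34 and -0.51, of which the first was -0.17 with scaling to summed FPKM and -0.13 when the treated libraries were compared across tables. DNAJB1, the J-domain partner of inducible HSP70 and a usual readout of HSF1 activity, measured 26.3 FPKM untreated and 26.0 FPKM treated on day 5, then 16.8 FPKM untreated and 14.0 FPKM treated on day 7 in the shEXOSC3 line. Its levels in shNS were 25.7 FPKM untreated and 24.5 FPKM treated on day 5, then 18.2 FPKM untreated and 15.5 FPKM treated on day 7. Its adjusted differences were 0.05 and -0.03, the smallest of the 10 genes over both days. With scaling to summed FPKM the day 5 value was 0.22. On day 7 the main transcript NM_006145 held 10.8 FPKM untreated and 11.5 FPKM treated in shEXOSC3, and 15.6 and 15.5 FPKM in shNS. In both lines the lower treated sum of day 7 thus came mainly from the other listed transcript, NM_001300914. That transcript held 5.98 FPKM untreated and 2.56 FPKM treated in shEXOSC3 on day 7.

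HSPA4 and HSPH1 encode HSP110 proteins, relatives of HSP70 that act as exchange factors. HSPA4 measured 239.9 FPKM without and 213 FPKM with doxycycline on day 5, then 339 FPKM untreated and 281 FPKM treated on day 7 in the shEXOSC3 line. The control line had 243 FPKM untreated and 241 FPKM treated on day 5, then 332 FPKM untreated and 307 FPKM treated on day 7. HSPH1 measured 36.1 FPKM untreated and 31.7 FPKM treated on day 5, then 37.1 FPKM untreated and 30.5 FPKM treated on day 7 in the shEXOSC3 line. Its shNS levels were 34.9 FPKM untreated and 33.9 FPKM treated on day 5, then 40.2 FPKM untreated and 39.2 FPKM treated on day 7. For both genes the shEXOSC3 ratio was the lower one on each day, with adjusted differences of -0.16 and -0.16 for HSPA4 and of -0.14 and -0.24 for HSPH1. HSPH1 also varied least over the libraries, its highest value being 1.32 times its lowest, while HSPA1A varied most (4.82 times).

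The division of HSPH1 among its 4 listed transcripts was less stable than its sum. The transcript NM_006644 held 34.3 and 30.8 FPKM in shEXOSC3 and 33.7 and 31.7 FPKM in shNS on day 5. On day 7 it held 18.7 and 12.4 FPKM in shEXOSC3 and 17.8 and 0 FPKM in shNS, while NM_001286504 held 18.3, 18.1, 15.6 and 19.4 FPKM in the same libraries. NM_001286503 was at or below 0.502 FPKM in 7 libraries and at 16.4 FPKM in the shNS doxycycline library of day 7. The value of 0 for NM_006644 and the 16.4 FPKM come from 1 library, whose HSPH1 sum was 39.2 FPKM.

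**Figure D2:**
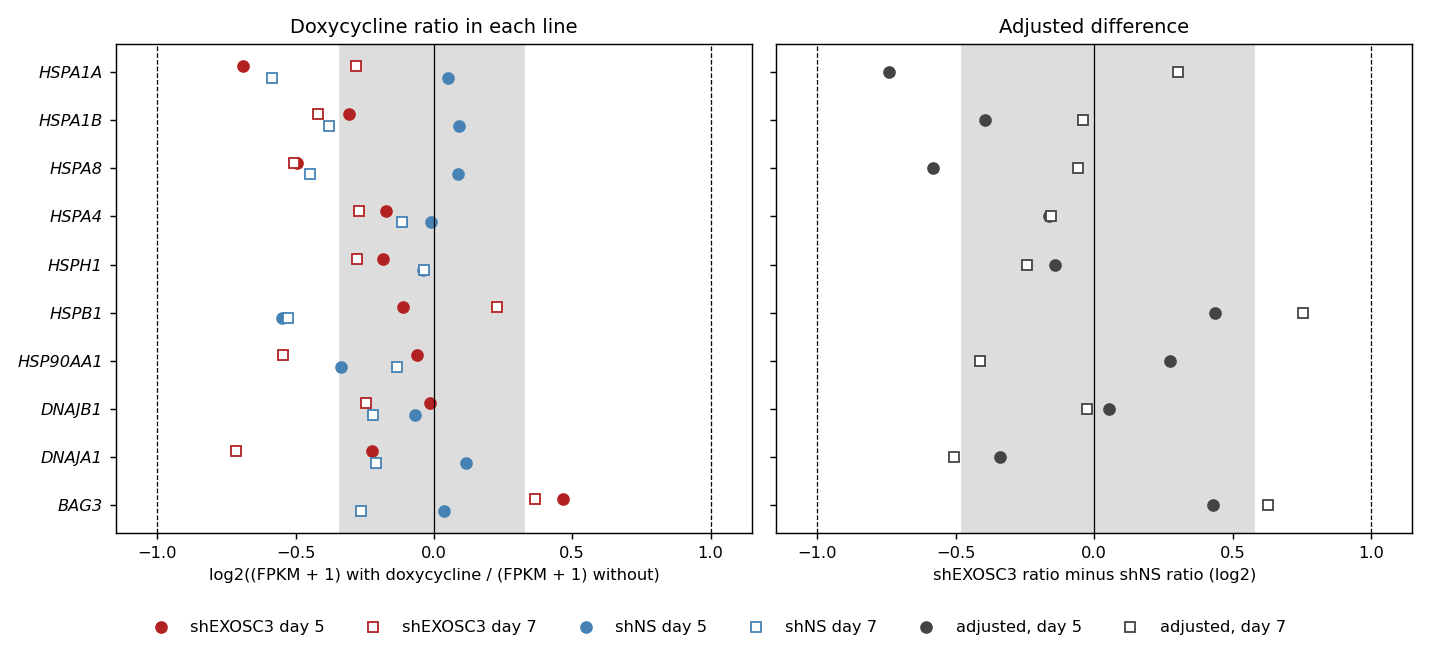
Left, log2((FPKM + 1) with doxycycline/(FPKM + 1) without) for the 10 genes in shEXOSC3 (red) and shNS (blue) on day 5 (filled circles) and day 7 (open squares); right, the shEXOSC3 ratio minus the shNS ratio of the same day. Each point compares 1 library with 1 library, the grey band is the narrowest span from the 5th to the 95th percentile of all 13116 genes among the comparisons of that panel, and dashed lines mark a factor of 2, which no point reaches.

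None of the 10 genes (0) differed by a factor of 2 in any of the 4 pairs or in an adjusted difference, the size used here to single out a gene where no replicate exists. Among all 13116 genes 2.05% did in shEXOSC3 on day 5, 2.92% in shEXOSC3 on day 7, 1.32% in shNS on day 5 and 2.05% in shNS on day 7. For the adjusted difference the shares were 2.43% on day 5 and 3.96% on day 7, and 0.435% on both days in 1 direction. A count of 0 among 10 genes is near these shares.

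By sign, 8 of the 10 genes were below their untreated level on both days in shEXOSC3, against 32.8% of all genes, and 1 was above on both days, against 31.7%. In shNS 5 of the 10 were below on both days, against 24.6% of all genes, and 0 were above, against 26.3%. Among the 946 genes with a mean of at least 100 FPKM, to which HSPA8, HSP90AA1, HSPA4 and DNAJA1 belong, 55% were below on both days in shEXOSC3 and 24.5% in shNS. With each library scaled to its own sum of FPKM, 6 of the 10 instead of 8 were below on both days in shEXOSC3; that scaling shifted the median of all genes by 0.12 on day 5. The median log2 ratio of the 10 genes was -0.18 and -0.28 in shEXOSC3 on days 5 and 7 and 0.013 and -0.24 in shNS. For genes of at least 100 FPKM these medians were -0.12, -0.13, 0.061 and -0.10, and for all genes they lay between -0.0038 and 0.0084. The pluripotency markers lay the same way, with 8 of 10 below on both days in each line and medians of -0.32 and -0.45 in shEXOSC3 and of -0.18 and -0.30 in shNS, and their part in the chaperone values was not tested. On day 7 alone, all 10 genes were below their untreated level in shNS, against 50.2% of all genes.

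For the adjusted difference 5 of the 10 genes (HSPA1B, HSPA8, HSPA4, HSPH1 and DNAJA1) were below 0 on both days, against 28.9% of all genes. HSPB1 and BAG3 were above 0 on both days, against 26% of all genes. HSPA1A, HSP90AA1 and DNAJB1 had opposite signs on the 2 days. The median over the 10 was -0.15 on day 5 and -0.049 on day 7. The chaperones of this set therefore had no common sign once the control line was subtracted.

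The shEXOSC3 and shNS ratios were also compared with limma, a linear model with variances moderated over all genes, using the ratios of both days as 2 observations per line, which measures the spread between days and not between replicates. With Benjamini-Hochberg adjustment limma called 0 of 13116 genes, and 769 genes had an unadjusted p under 0.05. None of the 10 chaperone genes (0) was called, and 2 had an unadjusted p under 0.05. By limma the mean difference was 0.59 (SE 0.153, adjusted p = 0.747) for HSPB1 and 0.53 (SE 0.165, adjusted p = 0.747) for BAG3, both higher on both days. It was -0.32 (SE 0.229, adjusted p = 0.75 by limma) for HSPA8 and -0.42 (SE 0.229, adjusted p = 0.747) for DNAJA1. In the authors' deposited tables, whose test sets 1 library against 1, the smallest p of any transcript of these genes was 0.017, for DNAJA1 in shEXOSC3 on day 7, with a deposited q of 0.715.

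The difference between days was larger than that with doxycycline for several of the genes, but the days come from separately made tables and their libraries differ with GC content. Day 7 was above day 5 in all 4 matched pairs for HSPA4, HSP90AA1, DNAJA1 and BAG3, against 33.6% of all genes, and below in all 4 for HSPA1A, HSPA1B, HSPB1 and DNAJB1, against 44.2%. HSPA1A had log2 values of -1.60 and -1.19 in shEXOSC3 without and with doxycycline and of -0.76 and -1.39 in shNS. HSP90AA1 had 0.73 and 0.25 in shEXOSC3 and 0.68 and 0.88 in shNS. The genes that were lower on day 7 have transcripts of 53.0% (DNAJB1) to 64.5% GC (HSPB1), and those that were higher have 41.7% (DNAJA1) to 56.9% (BAG3). Over all genes the median of day 7 over day 5 was 0.24 to 0.37 in the lowest of 10 bins of GC content with equal numbers of genes and -1.14 to -0.96 in the highest bin.

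With the median of each GC bin subtracted, HSPB1 was above 0 in all 4 pairs (0.11, 0.59, 0.59 and 0.70), the opposite of its uncorrected sign. HSPA1B lay at 0.16, 0.15, 0.14 and -0.28, and DNAJA1 at 0.37, -0.15, 0.64 and 0.32, so that neither kept 1 sign. HSPA1A (-0.89, -0.39, -0.08 and -0.66) and DNAJB1 (-0.38, -0.58, -0.25 and -0.35) stayed below 0. HSPA4, HSP90AA1 and BAG3 stayed above 0, and HSPH1 was now below 0 in all 4 pairs. After this step 37.1% of all genes were above and 37.2% below 0 in all 4 pairs, against 4 and 3 of the 10 chaperone genes, which is near that background. The same correction changed no sign of a doxycycline ratio of these genes. It moved 10 of 60 ratios and adjusted differences by more than their spread between days, the largest shift being 0.146 (log2). In shEXOSC3 on day 5 the median ratio of all genes was -0.059 in the lowest GC bin and 0.146 in the highest.

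**Figure D3:**
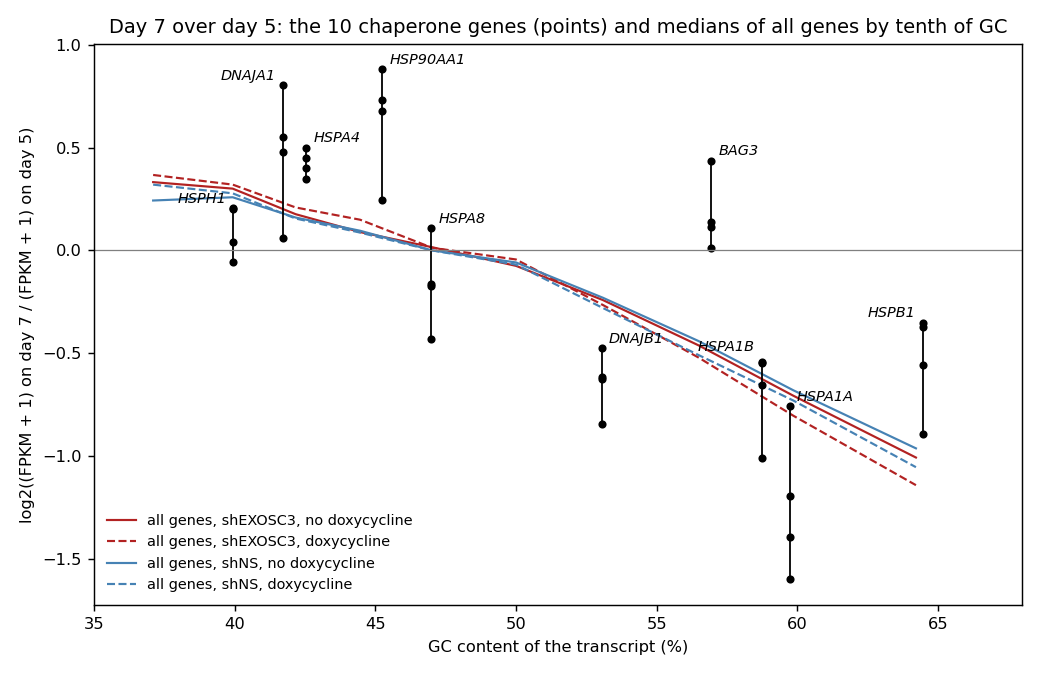
log2((FPKM + 1) on day 7/(FPKM + 1) on day 5) against the GC content of the transcript in percent for the 10 genes, each with 4 points, 1 for each line and treatment. Lines give the median of all genes in each of 10 equal bins of GC content, placed at the bin's median GC (red shEXOSC3, blue shNS, solid untreated, dashed doxycycline), and fall with GC content; HSPA1A and HSPB1, both of high GC content, lie below 0, whereas BAG3 lies above its neighbours.

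Other genes of the same pathway were taken as lists by role. Of the HSP70 family outside the 10, 6 of 9 genes were measured, 4 were below on both days in shEXOSC3 and also 4 in shNS. HSPA2, a testis-enriched HSP70, measured 37.4 FPKM untreated and 18.6 FPKM treated on day 5, then 13.8 FPKM untreated and 5.44 FPKM treated on day 7 in the shEXOSC3 line. Levels in shNS were 34.5 FPKM untreated and 22.2 FPKM treated on day 5, then 15.8 FPKM untreated and 8.49 FPKM treated on day 7. HSPA2 was thus lower with doxycycline in both lines, with adjusted differences of -0.36 and -0.38. HSPA6, which is transcribed almost only under strong stress, was at or below 0.0878 FPKM in all 8 libraries.

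Of 16 HSP90 genes and co-chaperones 14 were measured, and 11 were below on both days in shEXOSC3 and 7 in shNS, with medians of -0.20 and -0.21 against -0.059 and -0.088. The shares of all genes below on both days, 32.8% in shEXOSC3 and 24.6% in shNS, and of genes of at least 100 FPKM, 55% and 24.5%, stand beside these counts and those that follow. FKBP4, a prolyl isomerase of steroid receptor complexes, stood at 163 FPKM untreated and 113 FPKM treated on day 5, then 94.3 FPKM untreated and 66.4 FPKM treated on day 7 in shEXOSC3. Its shNS values were 149.6 FPKM untreated and 141 FPKM treated on day 5, then 98.3 FPKM untreated and 84.0 FPKM treated on day 7, and its adjusted differences were -0.45 and -0.28. All 14 genes of the TRiC chaperonin, which folds actin and tubulin, and of prefoldin, which feeds it, were measured. Of these 11 were below on both days in shEXOSC3 and 2 in shNS, and 11 had an adjusted difference below 0 on both days, against 28.9% of all genes and 44% of genes of at least 100 FPKM. The latter class had a median adjusted difference of -0.20 on day 5. TCP1, a chaperonin subunit, had log2 ratios of -0.37 and -0.36 in shEXOSC3 and of 0.03 and -0.16 in shNS. PFDN4, a prefoldin subunit, had ratios of -0.43 and -0.21, against 0.17 and -0.01.

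J-domain proteins and exchange factors outside the 10 were more divided. Of 15 measured J-domain genes 8 were below and 5 above on both days in shEXOSC3, with DNAJA2, the closest relative of DNAJA1 named here, at -0.44 and -0.33 against 0.16 and -0.29 in shNS. Of 9 exchange factors and partners 2 were below and 3 above on both days. BAG6, which guards tail-anchored proteins, had 0.67 and 0.09 in shEXOSC3 against -0.01 and 0.02 in shNS, and BAG5 had 0.19 and 0.18 against 0.04 and -0.04. In the list of small heat shock proteins 2 of 9 genes were measured, HSPB8 and IFT25. HSPB8, the partner of BAG3, was at 1.08 to 3.23 FPKM. IFT25, listed under its older name HSPB11, is a subunit of intraflagellar transport and was at 30.1 to 43.5 FPKM.

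The regulator HSF1 measured 11.7 FPKM untreated and 17.6 FPKM treated on day 5, then 6.77 FPKM untreated and 7.23 FPKM treated on day 7 in the shEXOSC3 line. Its shNS levels were 11.9 FPKM untreated and 11.5 FPKM treated on day 5, then 6.40 FPKM untreated and 7.01 FPKM treated on day 7. It was thus highest in the shEXOSC3 doxycycline library of day 5, with a log2 ratio of 0.55, and near its partner elsewhere. A list of 23 heat-inducible genes overlaps the others: of its 20 measured genes, 15 were below on both days in shEXOSC3 and 7 in shNS, and of the 12 that are in no other list the counts were 9 and 4. CACYBP, a binding partner of HSP90 co-chaperones, had ratios of -0.44 and -0.41 in shEXOSC3 and of 0.01 and -0.20 in shNS. IER5, an activator of HSF1, had 0.45 and 0.61 against 0.22 and 0.26. No gene (0) of the chaperone, HSF or heat-inducible lists passed a factor of 2 in an adjusted difference, against 2.43% of all genes on day 5 and 3.96% on day 7. In a further list, of immediate early genes, 3 of 13 measured genes passed it. These were EGR1 (-1.01), EGR2 (-1.06) and EGR3 (-1.22), all on day 7. Their day 7 ratios were 0.67, 0.47 and 0.78 in shNS, above the untreated level, and -0.34, -0.59 and -0.43 in shEXOSC3. EGR2 was at or below 3.61 FPKM and EGR3 at or below 5.33 FPKM in every library.

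Gene lists for the chaperones of other compartments were less uniform. Of 14 genes listed for the endoplasmic reticulum 6 were below and 4 above on both days in shEXOSC3. The 4 were HSPA5, SDF2L1, HERPUD1 and DDIT3, of which HERPUD1 and DDIT3 are not chaperones. DDIT3 had ratios of 0.87 and 0.92 in shEXOSC3 against 0.96 and 0.97 in shNS. HERPUD1 had 0.35 and 0.67 against 0.32 and 0.53. HSPA5, the HSP70 of that compartment, stood at 86.4 FPKM untreated and 113 FPKM treated on day 5, then 47.7 FPKM untreated and 47.8 FPKM treated on day 7, with ratios of 0.38 and 0.00 against -0.10 and 0.04 in shNS. Its HSP90, HSP90B1, had -0.35 and -0.49 against -0.07 and -0.14. Of 8 measured genes of the mitochondrial list, which includes the proteases LONP1 and CLPP, 4 were below and 1 above on both days. Stromal markers had a summed level of 99.4 and 137 FPKM on day 5 and of 207 and 225 FPKM on day 7 without and with doxycycline in shEXOSC3, against 98.3 and 107 FPKM and 182 and 168 FPKM in shNS. Most of this sum was THY1, which stem cells also express (82.0 and 107 FPKM on day 5, 176 and 197 FPKM on day 7 in shEXOSC3). COL1A1, a fibrillar collagen gene, had ratios of 0.87 and -0.31 in shEXOSC3 and of -0.38 and -0.23 in shNS, and COL1A2 had 0.59 and 0.05 against -0.11 and -0.06. Of these 8 markers 4 were measured, DCN and LUM were at 0 in all libraries, and the part of the stromal markers in the chaperone values was not tested. Of the other lineage markers most were below 1 FPKM, and the exceptions with the highest levels were KDR in the mesoderm list (27.2 to 66.4 FPKM) and NES (64.7 to 105 FPKM) and OTX2 (up to 42.1 FPKM) in the neuroectoderm list. KRT7 in the trophectoderm list lay between 7.70 and 9.26 FPKM. SOX17 was at or below 0.048 FPKM and TBXT at or below 0.027 FPKM, and AFP reached 2.43 FPKM.

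**Figure D4:**
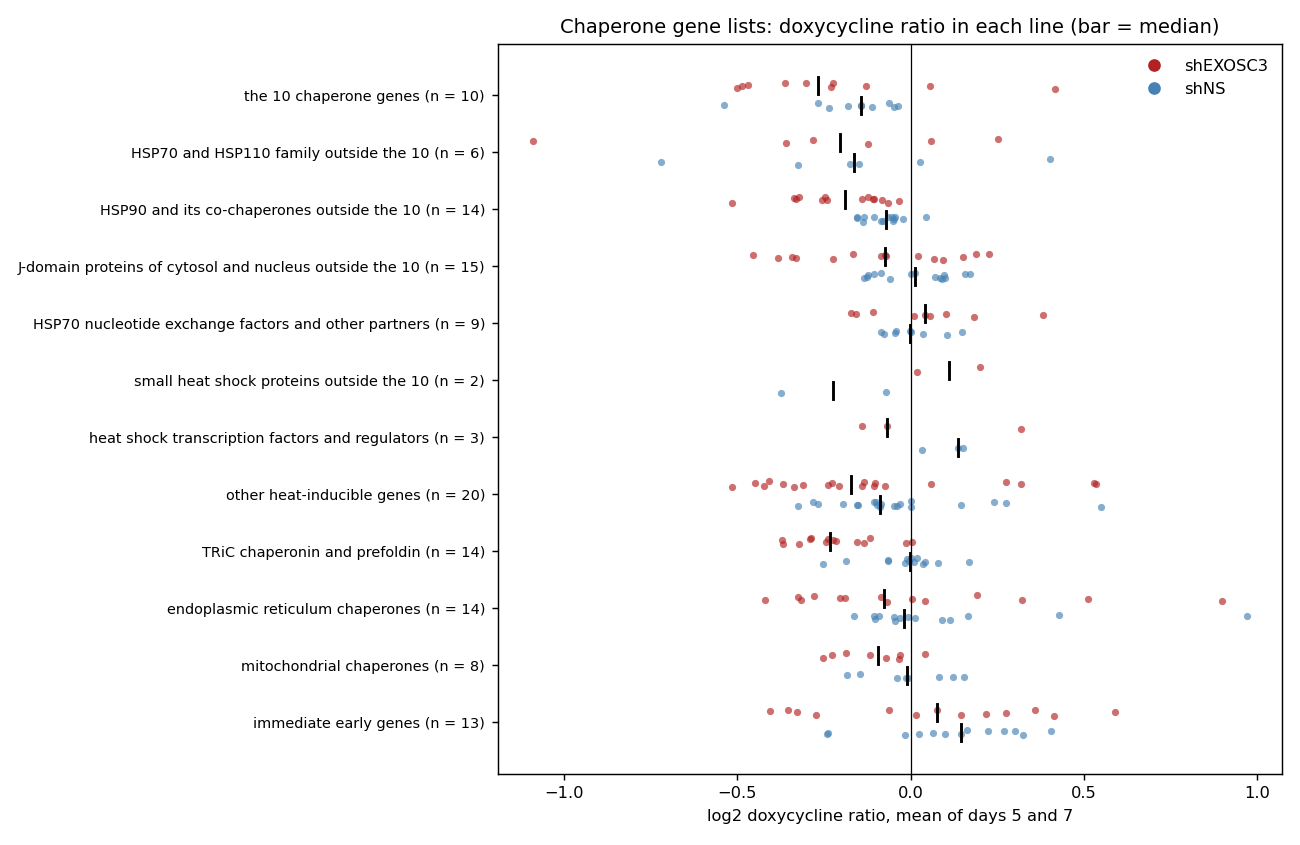
The mean of the day 5 and day 7 log2 doxycycline ratios of each measured gene, by list, in shEXOSC3 (red) and shNS (blue); 1 point is 1 gene, a bar is the median of the list in that line, and vertical scatter within a row has no meaning. The shEXOSC3 median lies below the shNS median for the 10 genes, the HSP90 co-chaperones and the TRiC and prefoldin genes. It lies above the shNS median for the 2 measured genes of the small heat shock protein list, HSPB8 and IFT25.

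Genes were also ranked by how closely their profile over the 8 libraries followed that of the 10 chaperones, among 8955 other genes with a mean of at least 5 FPKM. The log2 profile of each of the 10 was centred and divided by its standard deviation, and these profiles were averaged. The mean profile was followed most closely by SLTM (Pearson r = 0.956), ABCF1 (0.950), U2AF1 (0.936), C9orf78 (0.931) and COX17 (0.927), and 16 genes reached 0.9. The sum of HSPA1A and HSPA1B was followed most closely by HNRNPK (0.998), CDC37 (0.993), HDAC3 (0.992), MGME1 (0.992) and HDLBP (0.990), and 1598 genes reached 0.9. These libraries share their day, depth and GC dependence, so the values describe the profiles only. Within the set HSPA8 followed the mean profile best (r = 0.87) and BAG3 least (r = -0.19). Each of the 10 genes is part of that mean, so these values cannot be set against those of other genes.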

How the data were processed

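Per the labels' protocols, ribosomal RNA was removed from total RNA with Ribo-Zero, ERCC spike-in mix was included and ScriptSeq v2 kits gave 8 libraries, which were grouped by sample title (1 per group). The tables used here hold 0 spike-in entries. The submitters' processing notes name CASAVA 1.8, TopHat, Cufflinks and hg19. Of the counting strand, annotation release and normalization option, the sources used here say nothing.

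The 4 deposited tables (1 per line and day, made separately) give FPKM per RefSeq transcript in the layout of Cuffdiff, with the authors' p-value and q-value for 1 library against 1 library. FPKM was summed over the transcripts of a gene. Symbols came from a RefSeq table of a later assembly and were found for 48147 of 49235 transcripts. Genes with a failed or too deep estimate (55) were left out whole, as were genes with a mean below 1 FPKM. Ratios are log2((FPKM + 1)/(FPKM + 1)), doxycycline over untreated, within a table; the pseudocount of 1 FPKM makes differences of weakly expressed genes look smaller. FPKM are not counts, so no count test was used. The ratios of the 2 lines were compared with limma 3.58.1 (R 4.3.3, variance trend, 2 residual degrees of freedom) with Benjamini-Hochberg adjustment at 0.05. Tested on simulated shifts between shEXOSC3 and shNS in 13116 genes, this called 11 of 100 genes shifted by 1 and 76 of 100 shifted by 3 (log2). It also called 7 of the 12916 genes that were not shifted.

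GC content and shared stretches of 50 bases were computed from GENCODE transcripts, with GC found for 12784 genes (97.5%). Promoter windows came from RefSeq. The 10 genes and all lists were chosen with earlier results of these data known. The text names the 10 genes, EXOSC3, HSP90AB1 and HSF1. It also names genes from the up to 2 at each end of each list by mean adjusted difference, and the 5 most similar profiles by Pearson r. HSPA6, EGR2, HERPUD1, DDIT3, LONP1 and single marker genes were chosen after their values were seen. Alternatives were another pseudocount (0.1 or 5 FPKM), minimum (none or 5 FPKM), transcript choice, scaling, centring, status filter, the inducible pair as 1 gene, doxycycline libraries compared across tables, limma without trend or with day as a block, and, chosen after seeing the data, centring by GC content.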

Additional observations from a re-analysis of the deposited data

Results flagged for a closer look

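Of the 74 genes named by list, marker list, likeness of profile or membership, 6 had doxycycline ratios of opposite sign in the lines on both days, as 9.47% of all 13116 genes had, and none of the 10 chaperone genes was among them. The difference between the lines was not tested for single days, which have 1 library per group, and limma over both days called 0 genes. FOSL1, an AP-1 subunit, had a mean difference of 0.83 (log2), with 0.64 and 0.54 in shEXOSC3 on days 5 and 7 and -0.22 and -0.26 in shNS. Its day 5 levels were low, from 0.764 to 1.78 FPKM. DNAJB5, a J-domain gene, had a mean difference of 0.31, from 0.12 and 0.33 in shEXOSC3 and -0.03 and -0.14 in shNS. EGR3, an immediate early factor, had a mean difference of -0.73, from -0.22 and -0.43 in shEXOSC3 and 0.03 and 0.78 in shNS. HSF2, a heat shock factor, had a mean difference of -0.29, from -0.16 and -0.12 in shEXOSC3 and 0.01 and 0.29 in shNS. CLPP, a mitochondrial protease subunit, had a mean difference of -0.27, from -0.18 and -0.20 in shEXOSC3 and 0.13 and 0.04 in shNS. COL1A2, a stromal collagen gene, had a mean difference of 0.41, from 0.59 and 0.05 in shEXOSC3 and -0.11 and -0.06 in shNS.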

How the results depend on the processing

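No alternative made 1 of the 10 chaperone genes pass a factor of 2, except that with each gene taken as its transcript of highest mean HSPH1 passed it in shNS on day 7 (-4.23) and in the adjusted difference of day 7 (3.67), which makes 1 gene in each. That choice also turned the sign of 4 of 60 ratios and differences of the 10 genes, those of HSPH1 (adjusted, day 7) and DNAJB1 (shEXOSC3 on both days and adjusted on day 7). Scaling to summed FPKM turned 5 of 60, for HSPA4 and HSPH1 (adjusted, day 5) and for HSPB1, HSP90AA1 and DNAJB1 (shEXOSC3, day 5), and moved the all-gene median by 0.14 in the adjusted difference of day 5. Comparing doxycycline libraries across tables turned 2 of 20, the day 7 differences of HSPA1B and HSPA8. The other settings turned 0 signs, but with a pseudocount of 5 FPKM the ratios of HSPA1A and HSPA1B on day 7 shrank (shEXOSC3 to -0.14 and -0.24, shNS to -0.30 and -0.21), as did those of BAG3. BAG3 is not measured at a minimum of 5 FPKM.

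Counts of all genes past a factor of 2 moved more. With a pseudocount of 0.1 FPKM they were 445 (269) and 607 (383) in shEXOSC3 on days 5 and 7, 409 (269) in shNS on day 7, and 539 (319), 833 (519) and 93 (57) for the adjusted difference on day 5, day 7 and both days, with the reported counts in brackets. With 5 FPKM shEXOSC3 had 169 and 250. At a minimum of 5 FPKM shNS had 108 (173) on day 5, and the adjusted difference 208 and 344. With 1 transcript per gene the counts were 667 and 918 in shEXOSC3, 392 and 870 in shNS, and 870, 1423 and 139 for the adjusted difference. The cause was not tested. Without the variance trend limma called 2 genes (717 at an unadjusted p under 0.05), none of them among the 10, whose smallest adjusted p lay between 0.719 and 0.845 over all settings.

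The labels carry no replicate numbers, so only the day could serve as a block; with day as a replicate block (1 residual degree of freedom) limma called 0 genes, 676 at an unadjusted p under 0.05. A setting without haplotype contigs could not be run for HSPA1A and HSPA1B, which have no other entry. Without replicates or read totals, differences of low genes such as BAG3 and HSPA1A have no known precision.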
